A study of Mus musculus with 16 samples.

Results

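Immune cells were described in inguinal lymph nodes (LNs) of mice that had received fixed, non-viable MC38 cells, a mouse colon carcinoma line. A barcode was taken as an immune cell when it held 200 to 6000 detected genes, at most 30% mitochondrial unique molecular identifiers (UMIs), at least 1 UMI of Ptprc, the gene of the pan-leukocyte surface protein CD45, and no UMI of Prox1 or Pdgfrb, which mark lymphatic endothelium and mesenchymal cells. The cells were thus chosen by measured values, so their number and their levels of Ptprc, Prox1 and Pdgfrb are descriptions. The rule found 4790 immune cells among 14771 kept cells of 6 libraries, and 18348 among 50386 kept cells of all 16 libraries of the series. The draining LNs gave 1263, 1039 and 1051 immune cells in replicates A, B and C, and the non-draining LNs gave 653, 409 and 375.

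All animals were C57Bl/6 mice, 8 weeks old and sex-matched. Fixed draining libraries came from the inguinal LN on the side that received 500000 MC38 cells under the skin of the lower-right flank, after these cells had been held in paraformaldehyde. Fixed non-draining libraries came from the inguinal LN of the opposite side, and both were taken on day 12, with 3 libraries each. The other libraries came from draining and non-draining LNs of mice given live MC38 cells (3 each) and from naive mice (4). Every LN was digested with enzymes and its cells were positively selected for podoplanin (PDPN), a glycoprotein of stromal cells, before droplet 3' RNA sequencing. The immune cells are therefore those that came through a stromal enrichment, and their shares are not those of the whole LN. Whether the enrichment kept each cell type equally in both LNs was not measured. The paper describes 3 mice given fixed cells and the collection of both inguinal LNs, so draining and non-draining libraries can share animals. The labels do not say which libraries share an animal. The main tests are therefore unpaired, and p-values measure the spread between libraries, part of which may be technical.

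A draining LN receives antigen, debris and cells from its tissue through afferent lymph. Migratory dendritic cells (DCs) are conventional DCs that mature in the tissue, express the chemokine receptor CCR7 and carry antigen to the T cell zone, while resident cDC1 and cDC2 sample the lymph in place. Monocytes enter from the blood and respond strongly to interferons, and B cells form germinal centers from which antibody-secreting plasma cells arise. A fixed inoculum supplies antigen without a growing tumor.

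The 6 libraries held 1746116 to 6471378 UMIs in immune cells. The median immune cell had 3058 to 3448 UMIs in draining and 2668 to 3091 UMIs in non-draining libraries, with a median of 8.58% to 9.26% and 9.04% to 9.30% mitochondrial UMIs. Immune cells made up 31.8%, 30.9% and 31.4% of the kept cells in draining libraries and 36.6%, 33.1% and 35.2% in non-draining libraries, which describes what the rule selected. Of the 4790 cells, 1004 held exactly 1 Ptprc UMI. No pair of these libraries shared more than 3 barcodes.

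Clustering of the immune cells of all 16 libraries gave 19 classes, named from marker genes and called "like" because no annotation of the cells was used. One cluster, named stroma-led, was led by Cxcl13, Igfbp5, Enpp2, Dcn and Cxcl12, genes of fibroblastic reticular cells (FRCs), although its cells carried Ptprc. Of its cells, 22.98% were marked as likely doublets. The share marked was set to grow with the kept cells of a library. These were 3347 to 3972 in draining and 1065 to 1785 in non-draining libraries. Marked immune cells numbered 26, 28 and 24 in draining and 2, 2 and 4 in non-draining libraries. Whether this unequal load adds to stromal RNA in draining libraries was not tested. Results that rest on the stroma-led cluster are given with and without it.

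Migratory DC-like cells made up a larger share of the immune cells of draining than of non-draining LNs after the fixed inoculum, and 4 other classes made up a smaller one. Migratory DC-like cells were 21.4%, 21.5% and 18.1% of immune cells in draining libraries (20.3% ± 1.93, SD, n = 3) and 13.9%, 13.7% and 12.5% in non-draining libraries (13.4% ± 0.749, SD, n = 3). Every draining library lay above every non-draining one. The difference was 0.59 ± 0.115 (SE) on the log2 scale, with an adjusted p of 0.001 from edgeR on cell numbers, and it passed the threshold of 0.05 under every alternative run, including a clustering without the responsive genes (0.57, adjusted p = 0.002). The share in naive LNs was 18.6% ± 0.445 (SD, n = 4).

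The class joined 2 clusters of unlike depth. The deeper one, led by Ccl22 and Fscn1, held 6.18%, 6.93% and 5.99% of the immune cells in draining libraries and 2.91%, 2.69% and 3.20% in non-draining libraries. The shallower one, with Cacnb3 among its leading genes, held 192, 151 and 127 of these cells in draining libraries and 72, 45 and 35 in non-draining libraries, which was 15.2%, 14.5% and 12.1% of the immune cells in draining and 11.03%, 11.002% and 9.33% in non-draining libraries. The groups did not overlap in either cluster. Counted by UMIs, migratory DC-like cells gave 26.8%, 31.0% and 24.8% of the immune RNA in draining libraries and 15.5%, 15.4% and 15.4% in non-draining libraries.

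**Figure D1:**
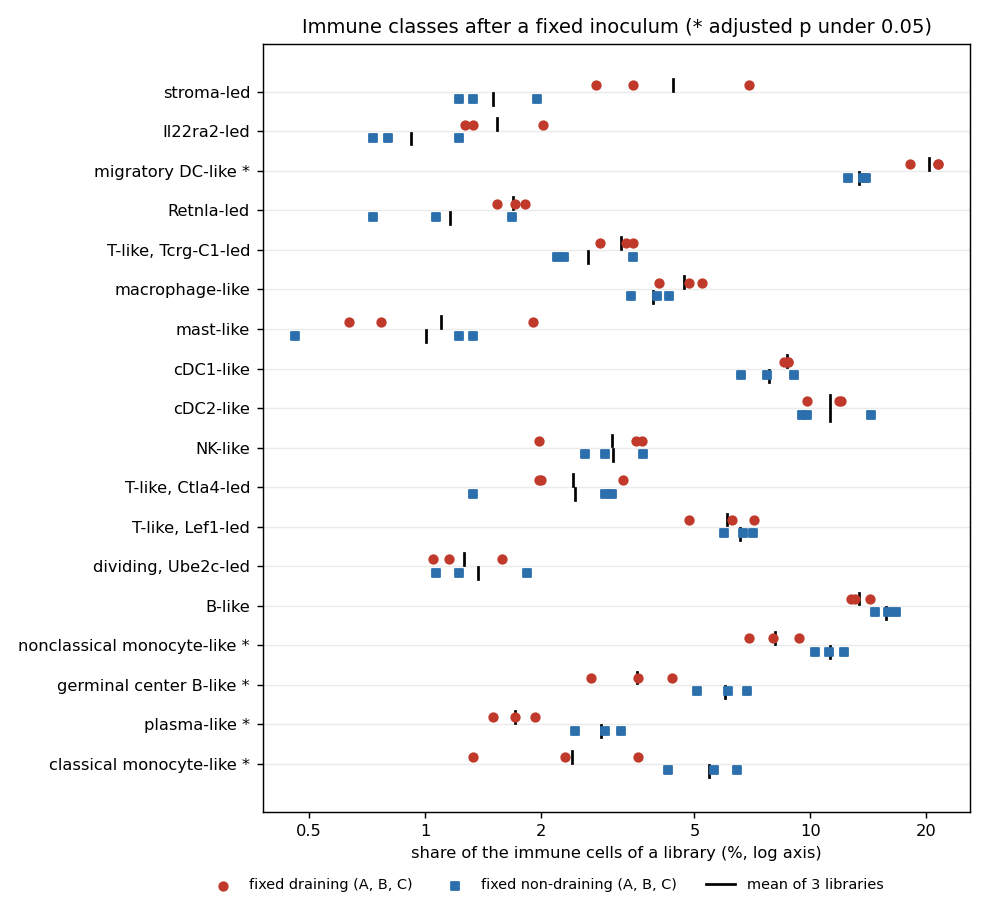
Share of 18 of the 19 classes among the immune cells of a library (%, log axis), with draining libraries as circles above and non-draining libraries as squares, and the mean of 3 libraries as a bar. Migratory DC-like cells lie at 18.1% to 21.5% in draining and 12.5% to 13.9% in non-draining libraries, and the 4 starred classes at the bottom lie lower in draining libraries.

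Classical monocyte-like cells, the class of inflammatory blood-derived monocytes, were 3.56%, 2.31% and 1.33% of immune cells in draining libraries and 6.43%, 5.62% and 4.27% in non-draining libraries. This was a log2 difference of -1.18 ± 0.303 (SE, adjusted p = 0.007), counted on 45, 24 and 14 cells in draining against 42, 23 and 16 cells in non-draining libraries. The numbers of these cells recovered per library were similar in both groups, while the total of immune cells recovered was larger in draining libraries. Recovered cells are not a count of cells per LN. Because interferon and monocyte genes that differ between the LNs are among the genes that lead this class, the clustering without responsive genes gives a second value, -0.85 with an adjusted p of 0.016, but of a more mixed class, whose larger cluster of 932 cells took 55.6% of them from the classical monocyte-like class. The call was lost with LogNormalize clustering (-1.19, adjusted p = 0.175) and without non-draining replicate A (-1.01, adjusted p = 0.103).

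Germinal center B-like cells were 3.56%, 2.70% and 4.38% in draining libraries and 6.13%, 6.85% and 5.07% in non-draining libraries (log2 -0.77 ± 0.184, adjusted p = 0.006). Plasma-like cells were 1.504%, 1.93% and 1.71% against 3.22%, 2.44% and 2.93% (log2 -0.77 ± 0.247, adjusted p = 0.034). Nonclassical monocyte-like cells, the patrolling type, were 9.34%, 6.93% and 7.99% against 12.3%, 10.3% and 11.2% (log2 -0.48 ± 0.159, adjusted p = 0.034). In all 3 classes the draining libraries lay below the non-draining ones, but none of the 3 calls held in the clustering without responsive genes (adjusted p of 0.179, 0.067 and 0.089, in the order named). An exact two-sided permutation test gave p = 0.1 for each of the 5 classes called, the smallest that 3 against 3 libraries allow.

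The naive LNs held 2.14% ± 0.271 germinal center B-like, 0.812% ± 0.179 plasma-like, 2.63% ± 0.663 classical monocyte-like and 5.15% ± 0.729 nonclassical monocyte-like cells (SD, n = 4). For germinal center B-like, plasma-like and nonclassical monocyte-like cells, the draining mean (3.54%, 1.71% and 8.09%) lay between the naive and the non-draining mean (6.01%, 2.86% and 11.2%). No test was made of either fixed group against naive LNs.

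The share of the stroma-led cluster was 2.77%, 3.46% and 6.95% in draining and 1.23%, 1.96% and 1.33% in non-draining libraries (log2 1.56 ± 0.600, adjusted p = 0.058). The groups did not overlap, but the difference did not pass the threshold. B-like cells averaged 13.3% ± 0.815 in draining and 15.7% ± 0.993 in non-draining libraries (SD, n = 3 each, adjusted p = 0.191). The cDC2-like class, at 11.2% in both groups, had a log2 difference of 0.02 ± 0.164.

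When UMIs were summed over all immune cells of a library, genes of migratory DCs and of stroma were higher in draining LNs, and genes of the interferon response, of monocytes and of the B lineage were lower. Of 14661 genes tested, 1311 (8.94%) passed an adjusted p of 0.05, of which 759 (5.18%) were higher and 552 (3.77%) lower in draining LNs. The 3 draining and 3 non-draining libraries did not overlap for 4005 genes (27.3%), and the median log2 fold change of all genes was -0.01. In these sums a change in the share of a class and a change within its cells cannot be told apart.

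Of the 759 genes that were higher, 466 (61.4%) had more of their UMIs in migratory DC-like cells than in any other class, as did 53.4% of all genes tested. The stroma-led cluster held most for 233 (30.7%), against 6.79% of all genes tested. For the 466 genes the median log2 fold change was 0.52 over all immune cells and 0.23 within migratory DC-like cells, where 2 were called. Of 457 tested within that class, 382 were positive, but these genes were chosen by a rise over the same UMIs. Of the 552 genes that were lower, 130 (23.6%) had most of their UMIs in migratory DC-like, 88 (15.9%, against 12.9% of all genes tested) in cDC1-like, 82 (14.9%, against 5%) in germinal center B-like, 66 (12%, against 3.13%) in B-like, 63 (11.4%, against 1.79%) in plasma-like and 54 (9.78%, against 0.853%) in classical monocyte-like cells. The last group had a median log2 fold change of -0.84 within its class, where 8 were called. Without the stroma-led cluster, 996 genes were called, 903 of them shared with the fit on all cells.

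Of the migratory DC program, 14 of 24 members were higher and none lower, with a median log2 fold change of 0.54. Fscn1, the actin-bundling fascin of mature DCs, stood at 921, 1213 and 856 counts per 1000000 UMIs (CPM) in draining and at 492, 533 and 617 CPM in non-draining libraries (log2 0.87 ± 0.11, adjusted p = 0.000273). Ccl22, a chemokine that attracts regulatory T cells, stood at 964, 1321 and 897 against 692, 434 and 616 CPM (log2 0.87 ± 0.17, adjusted p = 0.00516). Ccr7 (log2 0.71 ± 0.13) and Socs2 (0.67 ± 0.08), a feedback inhibitor of cytokine signals, were called as well.

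Within migratory DC-like cells the same genes did not differ beyond the spread. Fscn1 had a log2 fold change of 0.10 ± 0.11, Ccl22 of 0.06 ± 0.16, Ccr7 of 0.02 ± 0.13 and Socs2 of -0.05 ± 0.10 there, and the list's median was 0.02. Since these genes also define the class, the pooled rise and the larger share count the same cells. Of 8879 genes tested within migratory DC-like cells, 4 were called (0.0451%). Vim, which encodes the intermediate filament vimentin, was higher at 3911, 5742 and 5135 against 2467, 2535 and 3132 CPM (log2 0.86 ± 0.16, adjusted p = 0.0251). Fyb, an adaptor protein of adhesion signals, was lower at 131, 128 and 138 against 205, 276 and 211 CPM (log2 -0.78 ± 0.14, adjusted p = 0.0148). Serpinb6b, among the leading genes of the Ccl22-led cluster, was higher (log2 0.70 ± 0.12, adjusted p = 0.0148), and Erdr1 was lower (-0.90 ± 0.18, adjusted p = 0.0486). When only the Ccl22-led cluster was kept, Vim had a log2 fold change of 0.78 with an adjusted p of 0.106.

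NF-kB feedback genes were higher in 7 of 17 and lower in none (median log2 0.25), among them Bcl2a1b, an anti-apoptotic BCL2 relative (log2 0.63 ± 0.11), and Icam1, an adhesion ligand (0.49 ± 0.11). Immediate early and dissociation stress genes were higher in 10 of 27 and lower in 1 (median 0.24). The heat shock genes Hspa1b (log2 0.77 ± 0.13) and Dnajb1 (0.58 ± 0.10), which encode chaperones, and the phosphatase gene Dusp1 (0.62 ± 0.14) were among them. Hspa1b averaged 1107 CPM in naive, 544 in draining and 319 in non-draining LNs, and Dnajb1 154, 91.4 and 61.1 CPM. The naive mean of Dusp1 (160 CPM) lay between the draining (202) and non-draining mean (132).

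MHC class II genes were lower in 5 of 11 and higher in none, by small amounts (median log2 -0.31). H2-Ab1, a chain of the class II molecule, stood at 3806, 3284 and 3514 against 4378, 4180 and 4591 CPM (log2 -0.31 ± 0.07, adjusted p = 0.0108), and H2-Eb1 gave -0.32 ± 0.06. MHC class I genes went the other way, with 4 of 18 higher and none lower (median 0.21), B2m, the invariant light chain, among them (log2 0.32 ± 0.06). Apoe, a lipid carrier of macrophages (0.80 ± 0.13), and Vcam1 (0.82 ± 0.14), an adhesion molecule of stroma and sinus macrophages, were higher, whereas the share of macrophage-like cells gave 4.71% in draining and 3.90% in non-draining LNs with an adjusted p of 0.435.

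**Figure D2:**
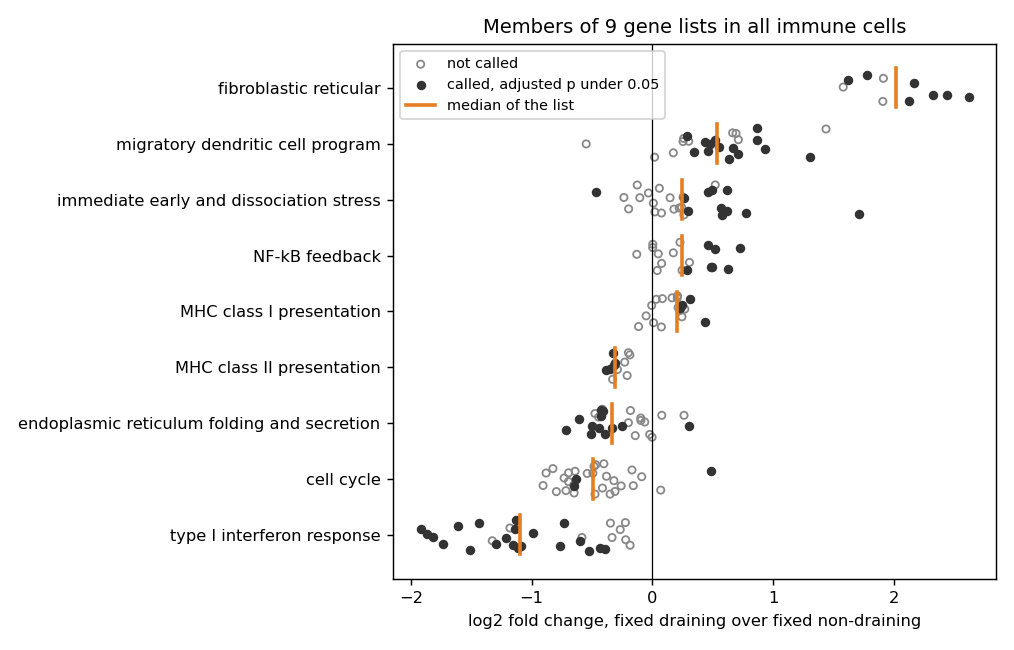
Log2 fold change over all immune cells, fixed draining over fixed non-draining, of each measured member of 9 gene lists, with genes at an adjusted p under 0.05 filled and the median of each list as a bar. The list medians run from 2.02 for FRC markers to -1.10 for the type I interferon response.

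Among called genes whose groups did not overlap and whose mean log2 CPM reached 5, stromal genes made up 9 of the 10 largest rises over all immune cells, and they were read from cells that carried Ptprc. Cxcl13, the chemokine that draws B cells to follicles, stood at 479, 798 and 1211 CPM in draining and at 117, 144 and 144 CPM in non-draining libraries (log2 2.63 ± 0.48, adjusted p = 0.00288). Igfbp5, a secreted binder of insulin-like growth factors, had a log2 fold change of 3.10 ± 0.61, and Cxcl12, the ligand of CXCR4, of 2.70 ± 0.35. The others were Igfbp3, Serping1, Col1a2, Enpp2, Dcn and Sparc (2.13 to 2.97), genes of growth factor binding, complement control, extracellular matrix and lysophospholipid production. Between 60.5% and 82.6% of the UMIs of each of these 9 genes lay in the stroma-led cluster. The naive mean lay above the non-draining mean for all 9. Cxcl12 averaged 158 CPM in naive, 156 in draining and 22.6 in non-draining LNs, and Col1a2 50.0, 48.3 and 9.78 CPM. For Cxcl13 these means were 653, 829 and 135 CPM. Without that cluster, Cxcl13 had a log2 fold change of 0.94 (adjusted p = 0.0076) and Igfbp5 of 1.16 (adjusted p = 0.042).

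RNA of FRCs was also higher in classes that are not stroma. The summed level of 10 FRC markers lay above every non-draining library in every draining library in 13 of 19 classes, the stroma-led cluster among them, with ratios of the means from 1.05 to 5.22 over the 19. Cxcl13 is 1 of the 10 markers. The sum was 412 to 493 CPM in draining and 72.9 to 132 CPM in non-draining libraries in nonclassical monocyte-like cells. Cxcl13 alone stood at 216 to 297 against 43.0 to 78.2 CPM there. In plasma-like cells the sum was 126 to 162 against 9.5 to 38.4 CPM, and in migratory DC-like cells 198 to 239 against 70.1 to 113 CPM. Lymphatic and blood endothelial markers did the same in 11 of 19 classes each, pericyte markers in 7 and erythroid and platelet markers in none. Over all immune cells, 7 of the 10 FRC markers were called higher (median log2 2.02).

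**Figure D3:**
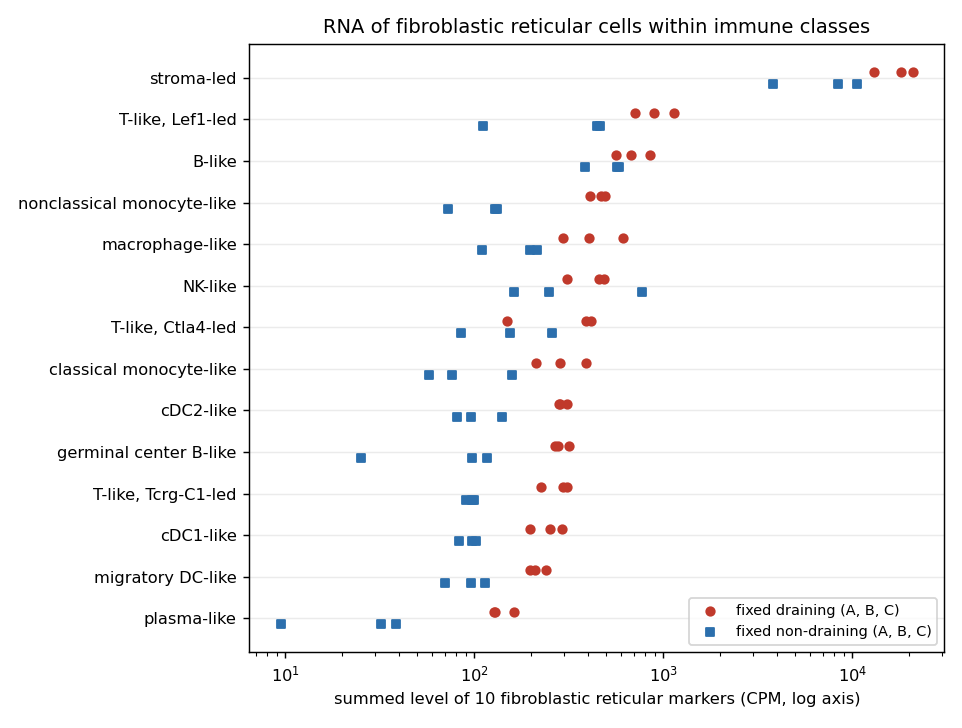
Summed level of 10 FRC markers (CPM, log axis) in the stroma-led cluster and each class tested for genes, with draining libraries as circles and non-draining libraries as squares. In nonclassical monocyte-like cells the draining libraries lie at 412 to 493 and the non-draining libraries at 72.9 to 132, and in B-like, NK-like and T-like, Ctla4-led cells the groups overlap.

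Stromal genes were also among those called within lymphoid classes, cDCs and nonclassical monocytes. In nonclassical monocyte-like cells 3 of 4760 genes (0.063%) were called, namely Cxcl13 (216, 241 and 297 against 43.0, 64.1 and 78.2 CPM), Ccl21a, the lymphatic and stromal ligand of CCR7 (log2 1.80 ± 0.34), and Clu, a secreted chaperone (1.74 ± 0.27). In T-like, Lef1-led cells, which carry genes of naive T cells, 8 of 2364 genes (0.338%) were called, all higher. They included Mfge8 (2.33 ± 0.50), a bridge protein for apoptotic cells, Ccl21a (2.28 ± 0.40), Clu (1.83 ± 0.38) and C3. The others were Ccl22 (4.29 ± 0.95), Ube2b (2.42 ± 0.58), Tmsb4x (1.39 ± 0.30) and B2m (0.99 ± 0.19). Tmsb4x stood at 3471, 3359 and 14034 against 2725, 2462 and 2728 CPM, with draining replicate C far above the other draining libraries. Ccl22, a leading gene of migratory DC-like cells, stood at 122, 179 and 985 against 21.1, 29.3 and 0 CPM. C3, the central complement component, was called in 4 classes, with log2 fold changes of 3.45 ± 0.55 in T-like, Lef1-led, 1.63 ± 0.28 in cDC2-like and 1.23 ± 0.26 in cDC1-like cells, and with 259, 224 and 259 against 94.9, 74.1 and 91.2 CPM in B-like cells. The summed FRC markers were 713 to 1143 against 112 to 462 CPM in T-like, Lef1-led cells, 281 to 311 against 81.1 to 140 CPM in cDC2-like cells and 196 to 290 against 82.9 to 102 CPM in cDC1-like cells. In B-like cells the 2 groups overlapped (566 to 846 against 384 to 580 CPM), but lymphatic endothelial markers (231 to 388 against 94.4 to 143 CPM) and blood endothelial markers (232 to 312 against 126 to 176 CPM) did not. Their part in these calls was not tested.

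B-like cells had 2 of 5834 genes called (0.0343%), C3 and Cst3. NK-like cells had 3 of 3133 called (0.0958%), Lyz2, Vim and Tmsb4x, of which Lyz2, a lysozyme of myeloid cells, rested on 497 UMIs in draining and 3 UMIs in non-draining libraries, and 1 cell held 34.9% of the draining UMIs of Vim. Of 7499 genes tested in cDC1-like cells 6 were called (0.08%), among them Glycam1, a mucin of high endothelial venules, with 51.8% of its draining UMIs in 1 cell. Of 7387 tested in cDC2-like cells 4 were called (0.0541%), among them Arpc1a, an actin regulator, with 48.04% of its non-draining UMIs in 1 cell (log2 -1.41 ± 0.29). In cDC1-like cells Cxcl10, an interferon-induced ligand of CXCR3, was lower at 0, 7.17 and 14.6 against 31.1, 11.1 and 159 CPM (log2 -3.16 ± 0.61, adjusted p = 0.0116), with 71.7% of the non-draining UMIs in 1 cell.

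No gene passed edgeR's test (0%) in germinal center B-like, macrophage-like, T-like, Ctla4-led or T-like, Tcrg-C1-led cells. An unadjusted p under 0.05 was reached by 303, 486, 210 and 324 genes in that order, and DESeq2 called 0, 5, 1 and 1.

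Type I interferon response genes were lower in draining LNs as a group over all immune cells. Of 30 members measured, 21 were called lower and none higher, all 30 had a negative log2 fold change, and the median was -1.10. Irf7, the transcription factor that amplifies type I interferon production (chr7:141262706-141266481, GRCm38), stood at 89.2, 56.9 and 54.0 CPM in draining and at 255, 258 and 153 CPM in non-draining libraries (log2 -1.74 ± 0.19, adjusted p = 8.36e-05). Isg15, a ubiquitin-like modifier (chr4:156199424-156200818), stood at 87.3, 49.2 and 35.5 against 151, 233 and 88.1 CPM (log2 -1.44 ± 0.32, adjusted p = 0.00874). Neither gene's groups overlapped. Naive LNs had a mean of 116 CPM of Irf7 and of 126 CPM of Isg15, between the means of the fixed groups.

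Stat2, which carries the interferon signal to the nucleus, fell by a small amount (log2 -0.44 ± 0.06), and Ifi27l2a (-1.11 ± 0.17) and Rtp4 (-1.14 ± 0.17), both interferon-induced, fell further. The interferon-gamma list had 5 of 24 lower and 1 higher (median log2 -0.07). The members with the smallest p were Zbp1, a nucleic acid sensor (-0.99 ± 0.14), Cxcl10 (-1.92 ± 0.37), Igtp, an immunity-related GTPase (-0.75 ± 0.16), and Cxcl9 (-1.28 ± 0.29). The Ly6 family genes Ly6a (-1.58 ± 0.16), Ly6i (-1.84 ± 0.26) and Ly6c2 (-1.71 ± 0.30) were lower too, of which Ly6c2 marks classical monocytes. Their naive means (119, 25.5 and 127 CPM) lay closer to the draining means (96.3, 23.3 and 101) than to the non-draining means (289, 80.0 and 331). These genes are read in part from classical monocyte-like cells, whose share was lower.

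The lower interferon genes were also found within classical monocyte-like cells, the class with the most calls, 32 of 4169 genes (0.768%), 6 higher and 26 lower. Genes that lead this cluster, such as Slfn4 and Ifit3, are left out, except Ly6c2 below. Irf7 stood at 1303, 766 and 913 CPM in draining and at 2671, 3243 and 2169 CPM in non-draining libraries (log2 -1.42 ± 0.22, adjusted p = 0.00145). Ly6a, an interferon-inducible surface protein (chr15:74994877-74998031), stood at 97.7, 44.0 and 258 against 2200, 590 and 1522 CPM (log2 -3.78 ± 0.51, adjusted p = 0.000569). Both were called under all 15 alternatives run for them, with Irf7 at -1.27 in the clustering without responsive genes. Isg15 stood at 1124, 739 and 375 against 1712, 3636 and 1465 CPM (log2 -1.53 ± 0.30, adjusted p = 0.0217).

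Ifit2, which blocks translation of viral RNA (log2 -1.38 ± 0.32), Usp18, which removes ISG15 and damps the receptor (-1.34 ± 0.32), Zbp1 (-1.21 ± 0.25) and Ifi47, a GTPase (-1.24 ± 0.26), were lower as well. Of 15 alternatives, Isg15 lost its call in 4, Zbp1 in 4, Ifi47 in 5, Ifit2 in 6 and Usp18 in 7. Of 30 type I interferon genes 4 were called in this class and 29 were negative (median -0.78). These cells are few. Draining replicate C gave 14 of them, in which blood endothelial markers summed to 4786 CPM, while the other 2 draining libraries had 83.1 and 109 CPM and the non-draining libraries 33.8 to 144 CPM. Without draining replicate C, 14 genes were called in the class, and Irf7 (-1.36, adjusted p = 0.0136) and Ly6a (-4.26, adjusted p = 0.000465) were still called, while Isg15 was not (-1.26, adjusted p = 0.0596). Without draining replicate A, 21 genes were called, without draining replicate B 4, without non-draining replicate A 11, without non-draining replicate B 17 and without non-draining replicate C 35.

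**Figure D4:**
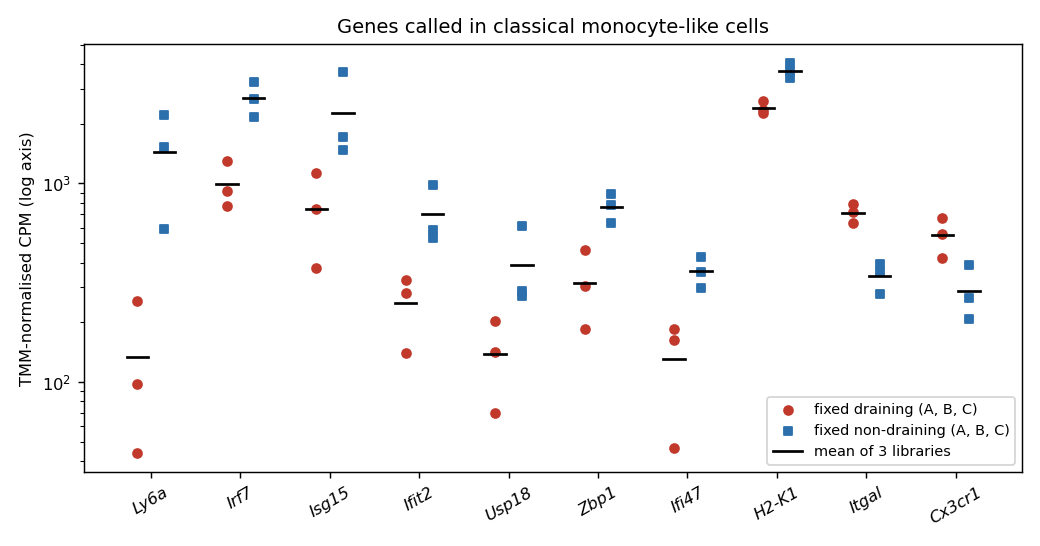
Level of 10 genes in classical monocyte-like cells (TMM-normalised CPM, log axis) in each draining library (circles, left) and each non-draining library (squares, right), with means as bars. The draining libraries lie below the non-draining ones for the 8 genes on the left, such as Irf7 at 766 to 1303 against 2169 to 3243, and above them for Itgal and Cx3cr1.

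Of the genes of antigen presentation by MHC class I, 4 of 17 were called lower in classical monocyte-like cells. H2-K1, a class I heavy chain, stood at 2329, 2588 and 2272 against 4015, 3668 and 3404 CPM (log2 -0.62 ± 0.15, adjusted p = 0.0425). Psmb8, an immunoproteasome subunit (-0.82 ± 0.20), and H2-T22, a nonclassical class I molecule (-1.05 ± 0.24), were also called, and all 17 were negative (median -0.63). H2-K1 lost its call in 8, Psmb8 in 9 and H2-T22 in 7 of 15 alternatives. Over all immune cells H2-K1 had the opposite sign (log2 0.23 ± 0.05, adjusted p = 0.00859).

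Other genes lower in draining than in non-draining LNs in these cells included Ccl5, a chemokine of T cells and monocytes (141, 317 and 164 against 1235, 710 and 503 CPM, log2 -2.01 ± 0.41). Scimp, an adaptor of Toll-like receptors (-2.44 ± 0.50), and Aif1, an actin-binding protein of myeloid cells (-0.90 ± 0.18), were lower too. Cd72 (-3.05 ± 0.69) rested on 4 UMIs in draining and 35 in non-draining libraries. The naive means in this class were 222 CPM for Ccl5, 2505 for H2-K1, 1432 for Irf7 and 446 for Ly6a, each between the means of the fixed groups. Those of Ccl5 (207 CPM in draining, 816 in non-draining) and H2-K1 (2396 and 3696) lay close to the draining mean. Itgal and Cx3cr1 were higher. Itgal, the alpha chain of the integrin LFA-1, stood at 717, 792 and 632 against 276, 393 and 359 CPM (log2 1.10 ± 0.21, adjusted p = 0.0217). Cx3cr1, the fractalkine receptor, stood at 554, 669 and 422 against 266, 207 and 388 CPM (log2 1.00 ± 0.23, adjusted p = 0.0425). Itgal lost its call in 3 and Cx3cr1 in 5 of 15 alternatives. All 8 markers of nonclassical monocytes had a positive log2 fold change in this class (median 0.81), 1 of them called, and Spn, another marker, gave 1.52 ± 0.40 with an adjusted p of 0.0704. Ly6c2, a marker of classical monocytes that leads this cluster, was lower (log2 -1.09 ± 0.25, adjusted p = 0.0425). It stood at 2438, 1778 and 1265 against 4508, 3199 and 4122 CPM. The remaining rises named by rule were Emp3, a membrane protein (0.94 ± 0.22), and Cxcl13 (2.24 ± 0.45), the stromal chemokine. The summed FRC markers of this class averaged 296 CPM in draining LNs, above all non-draining libraries, whose mean was 97.8 CPM. That sum includes Cxcl13 itself, at 141 to 217 against 16.3 to 115 CPM, so it is not separate from the rise of Cxcl13. The part of FRC RNA in that rise was not tested.

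Interferon-stimulated response elements, bound by interferon regulatory factors, contain repeated GAAA words. Promoters from 250 bases before to 50 bases after the start site (RefSeq, GRCm38.p6) were searched for GAAANNGAAA on both strands. It was found in 5 of the 20 matched genes among the 26 that were lower in classical monocyte-like cells (25%), in 1 of the 5 matched genes among the 6 that were higher there (20%), in 14 of 22 matched genes of the type I interferon list (63.6%) and in 1079 of 27025 genes of the table (3.99%). The windows that hold the match in those 5 genes are printed 5′ to 3′ on the strand of the gene, to show where the word searched for lies and the bases around it. Capitals mark the match, which reads as TTTCNNTTTC where it lies on the other strand.
Isg15 (chr4:156200867-156200916, minus strand): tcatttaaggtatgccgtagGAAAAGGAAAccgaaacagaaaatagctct
Ctss (chr3:95526745-95526794, plus strand): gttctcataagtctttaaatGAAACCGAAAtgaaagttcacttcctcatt
H2-T22 (chr17:36042904-36042953, minus strand): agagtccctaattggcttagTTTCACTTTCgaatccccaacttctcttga
Phf11b (chr14:59341351-59341400, minus strand): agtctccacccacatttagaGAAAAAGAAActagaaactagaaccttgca
Aif1 (chr17:35176180-35176229, minus strand): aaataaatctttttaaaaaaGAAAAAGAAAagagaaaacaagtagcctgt

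Isg15 held 3 matches and the others 1. Ctss, a cysteine protease that trims the invariant chain of MHC class II, had a log2 fold change of -0.63 ± 0.15 in classical monocyte-like cells, and Phf11b of -1.49 ± 0.32. A match describes these letters and is not evidence of binding.

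In nonclassical monocyte-like cells none of 25 type I interferon genes measured was called, 22 were negative and the median was -0.41. Irf7 stood at 426, 306 and 382 against 747, 524 and 430 CPM there, with draining replicate A and non-draining replicate C almost level (log2 -0.64 ± 0.20, adjusted p = 0.295). In migratory DC-like cells the median of 18 such genes was -0.003, with 9 positive and 9 negative.

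Genes of the B lineage were lower over all immune cells. Of 12 B cell markers 9 were lower and none higher (median log2 -0.50), and of 12 plasma cell markers 7 were lower and none higher (median -0.86). Ms4a1, the gene of CD20 (-0.48 ± 0.12), and Ly6d (-1.42 ± 0.18) were among them. Xbp1, the transcription factor of secretory cells, stood at 151, 158 and 140 against 227, 271 and 241 CPM (log2 -0.71 ± 0.10, adjusted p = 0.000603), without overlap. Jchain (-1.07 ± 0.24), which joins IgM and IgA subunits, Mzb1 (-1.32 ± 0.31), a chaperone of IgM, and Eaf2 (-1.36 ± 0.24), an elongation factor partner, fell with it.

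Genes of folding and secretion in the endoplasmic reticulum were lower in 11 of 25 and higher in 1 (median log2 -0.33), with Ssr2, a translocon subunit, at -0.60 ± 0.12 and the chaperone Canx as the member that was higher (0.30 ± 0.07). Within plasma-like cells none of the 25 was called (median -0.10), and Xbp1 gave -0.04 ± 0.35. Plasma-like cells supplied 4.7%, 5.3% and 4.1% of the immune UMIs in draining libraries and 12.3%, 9.0% and 12.0% in non-draining libraries. In the class itself 1 gene of 3194 was called (0.0313%), Hmgb2, a chromatin protein of dividing cells, lower at 67.3, 29.9 and 12.7 against 211, 360 and 435 CPM (log2 -3.04 ± 0.52, adjusted p = 0.0396). Single cells held 48.1% of its draining and 43.5% of its non-draining UMIs. Over all immune cells Top2a (-0.63 ± 0.16) and Tk1 (-0.65 ± 0.16), both of DNA replication and mitosis, were lower. They were the 2 called lower of 30 cell cycle genes, a share near the 3.77% of all genes tested. Tk1 had a mean log2 CPM of only 4.29 and lost its call in 6 of 15 alternatives.

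Ighm, the heavy chain of IgM, stood at 9444, 8698 and 9087 CPM of all immune RNA in draining and at 22618, 14404 and 21977 in non-draining libraries (log2 -1.12 ± 0.22, adjusted p = 0.00501). It led the heavy chain UMIs in 17 of 19, 14 of 20 and 17 of 18 plasma-like cells of draining libraries and in 18 of 21, 9 of 10 and 11 of 11 of non-draining libraries. Most UMIs of the switched isotypes named below came from 1 cell of a library. Switched cells were not always single, since in draining replicate B Ighg2b and Ighg2c each led 2 plasma-like cells. Ighg3 gave the largest pooled rise (log2 8.34 ± 2.43), but 1 cell held 92.9% of its draining UMIs. In draining replicate B that cell made Ighg3 41.8% of the heavy chain UMIs of plasma-like cells, on 34759 UMIs.

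Ighg1 (pooled log2 4.52 ± 1.19) rested likewise on 3479 UMIs of plasma-like cells in draining replicate C, all from 1 cell. Ighg2b (-4.82 ± 1.15) rested on 13107 UMIs in non-draining replicate A, 99.4% of them from 1 cell, and 3152 in non-draining replicate B, 94.5% from 1 cell. Of the non-draining UMIs of Iglc2, a lambda light chain and the largest pooled fall (-3.03 ± 0.85) among genes named by rule, 77.8% came from 1 cell.

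**Figure D5:**
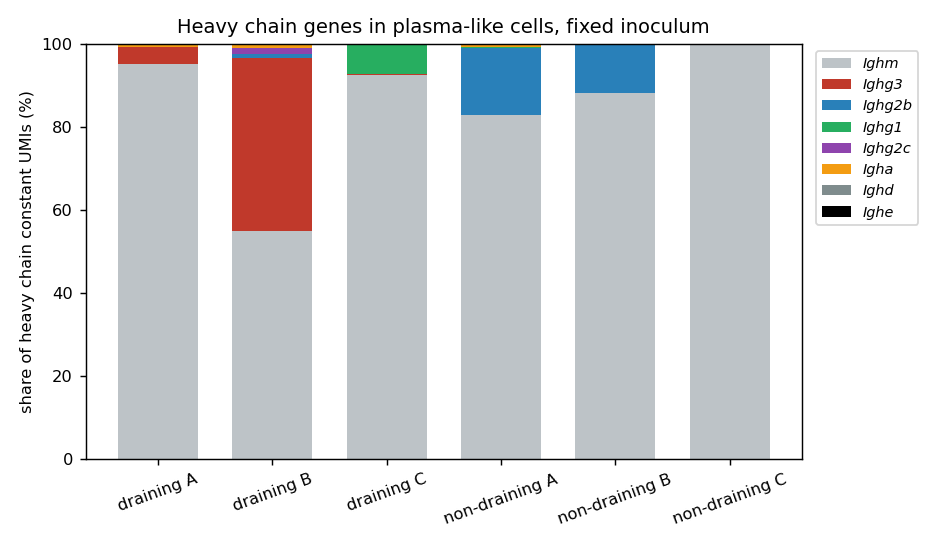
Share of heavy chain constant UMIs (%) taken by each heavy chain gene in the plasma-like cells of each library, draining libraries on the left. Ighm takes 54.9% to 95.3% in draining and 82.9% to 100.0% in non-draining libraries, and the Ighg3 block of draining replicate B (41.8%) is 1 cell.

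Against live tumor, the effect of drainage differed in direction for several of these results. The test of the difference itself, fixed minus live, was called for 2546 of 14661 genes (17.4%) over all immune cells. The share of migratory DC-like cells had a log2 difference of -1.43 between live draining and live non-draining LNs (6.04% against 16.3%), and the difference between the 2 effects was 2.02. For classical monocyte-like cells the live effect was 0.67 (5.16% against 3.27%) and the difference -1.85. Irf7 over all immune cells had a live effect of 0.82 and a difference of -2.56 (adjusted p = 3.7e-06), and in classical monocyte-like cells a live effect of 0.16 and a difference of -1.58 (adjusted p = 0.0127). Col1a2 and Apoe had the same sign in both. Col1a2 had a live effect of 2.02 and a difference of 0.42 (adjusted p = 0.75), and Apoe a live effect of 0.86 and a difference of -0.06 (adjusted p = 0.87).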

How the data were processed

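Droplet 3' single-cell RNA sequencing of PDPN-enriched LN cells gave 16 libraries. The authors aligned and counted with Cell Ranger 3.0.1 on mm10 (per the submitters' processing notes) and deposited raw counts, whole UMIs per gene and barcode, without normalization. The immune cells of all 16 libraries were clustered in Seurat 5.3.0 (sctransform 0.4.2, R 4.3.3) with 2000 variable genes, 20 principal components and a Louvain resolution of 0.8. Doublets were scored with scrublet (scanpy 1.11.5, Python 3.11.15), whose automatic threshold marked too few cells, so the highest 0.8% per 1000 cells were marked and kept, except in 1 alternative.

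Sums of UMIs over the cells of a class, taken in each library with 10 cells or more, were tested with edgeR 4.0.16 (TMM, filterByExpr, quasi-likelihood fit over all 16 libraries, Benjamini-Hochberg adjustment, called at an adjusted p under 0.05). Levels in CPM use TMM, except summed markers, which use plain totals. Fold changes are log2 with SE, and a rise or fall is in draining relative to non-draining LNs, not relative to naive LNs. Shares were tested with edgeR on cell numbers, adjusted over the classes, and with exact permutation. Classes were tested for genes when at least 2 libraries per fixed group had 10 cells, so that Il22ra2-led, Retnla-led, dividing, mast-like and stroma-led cells were not tested. Values of 1 further class are not reported here. Libraries of the same letter had correlations of 0.03, -0.09 and 0.05 over 5039 genes. Computed on values centered on 3 libraries per group, these cannot tell whether a letter marks an animal. The fit with the letters as a block is an alternative. It called 976 genes over all immune cells, 824 of them shared with the main fit.

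The cells, lists and tests were chosen with earlier results of these data known. Named genes are the 10 largest rises and falls over all immune cells, and the 4 in each class, among called genes whose groups do not overlap and whose mean log2 CPM reaches 5, up to 4 members of a list with the smallest p, and class markers. Dusp1, Bcl2a1b, Icam1 and genes named in classical monocyte-like cells outside this rule were chosen after their values were seen. Cxcl10 in cDC1-like cells, whose groups overlap, and Ccl21a, Clu, Tmsb4x and B2m in T-like, Lef1-led cells also lie outside this rule. Alternatives were DESeq2 1.42.0, limma 3.58.1 for shares, RLE factors, no count filter, the 6 fixed libraries alone, each library left out, at most 10% mitochondrial UMIs, at least 2 Ptprc UMIs, no doublets, LogNormalize clustering, and clustering without the 1888 genes responding at an unadjusted p under 0.01. The last list holds class markers, so it is not a neutral check. Leaving out the stroma-led cluster and keeping only the Ccl22-led cluster were added after seeing the data. The edgeR test of genes was also run on simulated counts with 200 changed genes. These covered all immune, classical monocyte-like and migratory DC-like cells, not the shares, and their recovery is not reported here.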

Additional observations from a re-analysis of the deposited data

Results flagged for a closer look

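The effect of drainage differed between fixed and live inoculum in a test of the difference itself (edgeR, log2 effect in fixed minus log2 effect in live, adjusted p under 0.05) for 10 of 19 class shares. The differences were -0.92 for B-like, 0.83 for cDC1-like, 1.07 for cDC2-like, -1.85 for classical monocyte-like, -1.42 for germinal center B-like, 2.70 for mast-like, 2.02 for migratory DC-like, -1.14 for plasma-like, 1.13 for T-like, Ctla4-led and 0.88 for T-like, Tcrg-C1-led cells. They were positive for DC-like, mast-like and both T-like classes named, and negative for classical monocyte-like cells and the 3 classes of the B lineage.

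Over all immune cells the difference was positive for Igfbp5 (2.70), Cxcl12 (1.90), Enpp2 (1.52), B2m (0.46), H2-K1 (0.42), Socs2 (1.77), Fscn1 (1.91), Ccr7 (1.35), Ccl22 (2.17), Cxcl16 (0.98), Hspa1b (2.00), Dnajb1 (1.69), Dusp1 (1.32), Bcl2a1b (0.73) and Icam1 (0.85), and negative for Cxcl10 (-3.08), Ly6i (-2.18), Irf7 (-2.56), Ly6c2 (-2.37), Ly6a (-2.45), Isg15 (-2.54), Ly6d (-1.64), Eaf2 (-2.37), Mzb1 (-2.62), Stat2 (-0.65), Ifi27l2a (-2.31), Rtp4 (-2.18), Zbp1 (-1.82), Igtp (-1.04), Cxcl9 (-1.63), H2-Eb1 (-0.32), H2-Ab1 (-0.37), Xbp1 (-1.24), Ssr2 (-1.42), Ighg2b (-6.49), Jchain (-1.02), Ms4a1 (-0.87), Top2a (-1.37) and Tk1 (-1.27). Ighg2b rests on single cells.

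In classical monocyte-like cells the difference was called for Ly6a (-5.07), Irf7 (-1.58), Isg15 (-2.27), Ifit2 (-1.98), Usp18 (-1.72), Zbp1 (-1.72), Ifi47 (-1.56), Psmb8 (-1.21), Itgal (1.64), Cx3cr1 (1.35), Spn (2.22), Scimp (-2.74) and Aif1 (-1.34). The difference was also called there for Ly6c2 (-1.43). In other classes it was -5.46 for Cxcl10 in cDC1-like cells, 2.44 for Vim in NK-like cells, -1.66 for Irf7 in nonclassical monocyte-like cells and -3.50 for Hmgb2 in plasma-like cells.

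Among the naive libraries, B-like cells made up 15.3% of the immune cells in replicate A, which stood apart from 17.2% to 17.3% in the other 3. Chance sets 1 in about 20 groups of 4 libraries apart in this way, and 19 classes were looked at.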

How the results depend on the processing

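No called class share or named gene changed its direction under any alternative run. The direction of the other called genes was not compared. Of 282 values of class shares under alternatives, 254 kept their side of the threshold, 23 lost and 5 gained a call. Of the values of named genes, 1299 of 1553 kept it and 251 lost a call. The 1311 genes called over all immune cells became 1987 with no filter on low counts and 795 with at least 2 Ptprc UMIs. Those higher became 1305 and 485 under the same 2 choices, and those lower 310 with at least 2 Ptprc UMIs. The 63 calls summed over classes became 165 with DESeq2, 524 with no filter, 121 with the 6 fixed libraries, 31 with LogNormalize clustering and 100 without responsive genes. In classical monocyte-like cells 32 became 70, 89 and 9 under the first 3 of these, and that class could not be fitted with LogNormalize clustering. In T-like, Lef1-led cells 8 became 36 with no filter, 5 with the 6 libraries, 4 with at least 2 Ptprc UMIs, 4 with LogNormalize and 2 without responsive genes, and the class could not be fitted at 10% mitochondrial UMIs. At least 2 Ptprc UMIs left 2 lower genes of the endoplasmic reticulum list and 4 higher FRC markers. The cause was not tested.

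Among shares, B-like cells gained a call at 10% mitochondrial UMIs (-0.45), and classical monocyte-like cells lost it with LogNormalize (-1.19). Germinal center B-like cells lost it without responsive genes (-0.54). Nonclassical monocyte-like cells lost it with the 6 libraries (-0.48), at least 2 Ptprc UMIs (-0.41), doublets left out (-0.46), LogNormalize (-0.35) and without responsive genes (-0.42). Plasma-like cells lost it with the 6 libraries (-0.77), at least 2 Ptprc UMIs (-0.56), doublets left out (-0.77), without responsive genes (-0.76) and without the stroma-led cluster (-0.73). The stroma-led cluster gained a call with limma (1.42) and with the 6 libraries (1.55).

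The replicate block over the 6 fixed libraries gave 324 lower genes over all immune cells, 174 calls summed over classes, 60 in classical monocyte-like and 3 in T-like, Lef1-led cells. Under this block the shares of germinal center B-like (-0.77) and plasma-like cells (-0.78) lost their call and the stroma-led cluster gained one (1.47). With each fixed library left out in turn, calls over all immune cells ran from 637 (without non-draining A) to 1181, with 643 without draining B. Genes higher ran from 394 to 684 and genes lower from 224 to 497. Calls ran from 2 to 19 in T-like, Lef1-led and from 4 to 35 in classical monocyte-like cells, from 4 to 11 for the lower endoplasmic reticulum list and from 4 to 7 for FRC markers. Log2 share differences ran from -1.62 to -0.91 for classical monocyte-like, -0.60 to -0.38 for nonclassical monocyte-like, -0.86 to -0.65 for plasma-like and 1.07 to 1.82 for stroma-led cells.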
